A study of Mus musculus with 4 samples.

Results

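The NF-κB subunits and their feedback inhibitors are described here across 4 RNA-Seq libraries of cultured mouse type 2 innate lymphoid cells (ILC2s), lymphocytes that carry no rearranged antigen receptor and release type 2 cytokines. The members were chosen by name: the 5 subunits Nfkb1, Nfkb2, Rel, Rela, and Relb, and the 5 inhibitors Nfkbia, Nfkbib, Nfkbie, Nfkbiz, and Tnfaip3. All 10 were among the 27179 genes counted and among the 11184 genes that were tested. ILC2s sorted as CD45.2+Lin-CD127+KLRG1+ cells from the large intestine of C57BL/6 mice were kept for 5 days with IL-33, IL-25, IL-7, and IL-2 (10 ng/mL of each) in vehicle and DCA cultures alike. They then received vehicle (2 libraries) or 100 μM deoxycholic acid (DCA), a secondary bile acid made by gut bacteria (2 libraries). The duration of this treatment was 24 hours by the paper's methods and 16 hours by the deposited design text. The question was which genes differ in ILC2s exposed to DCA. The labels do not state whether replicates were separate mice or cultures, so p-values measure the spread between these libraries, which may be technical.

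NF-κB is a family of dimeric transcription factors that IκB proteins hold in the cytoplasm until IκB kinase marks them for destruction. Receptors for alarmins such as IL-33 act through this canonical route, whereas the noncanonical route processes the p100 product of Nfkb2 into p52, a partner of RelB. Several inhibitors are themselves NF-κB target genes, which closes a negative feedback loop, and in ILC2s this pathway takes part in cytokine release after alarmin exposure.

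Because several members are textbook targets of the factor they form or restrain, the bases before their start sites are shown for the matches to the κB consensus, a run of 10 bases with a G-rich beginning and a C-rich end. RefSeq (GRCm38.p6) windows of the 250 bases before a start site were at hand for 7 of the 10 members (Nfkb2, Rel, Rela, Nfkbia, Nfkbib, Nfkbie, and Tnfaip3). A match on either strand was found for 5 of these 7, that is, for each except Rela and Nfkbib, against 1204 of 27025 genes with a window (4.46%). A gene with several windows has more room for a match, and of 32851 windows 1281 (3.9%) held one. The Nfkb2 windows belong to start sites at 46304737, 46305695, and 46305930, inside the gene, which begins at 46300994. At the first and last of these, and at that of Rel, the bases just before the start site lie in annotated exons. Nfkbia and Tnfaip3, the inhibitors with the highest and the lowest level, are printed with the whole window, Nfkb2, Rel, and Nfkbie with the matched stretch only. A further Tnfaip3 window, at start site 19011963, held no match and is not printed. All run 5′ to 3′ along the gene's strand. Capitals mark the bases of a match, and overlapping matches are merged in Nfkb2 and Rel. A match is a description of the letters and not evidence of binding.
Nfkbia, chr12:55492648-55492897, minus strand: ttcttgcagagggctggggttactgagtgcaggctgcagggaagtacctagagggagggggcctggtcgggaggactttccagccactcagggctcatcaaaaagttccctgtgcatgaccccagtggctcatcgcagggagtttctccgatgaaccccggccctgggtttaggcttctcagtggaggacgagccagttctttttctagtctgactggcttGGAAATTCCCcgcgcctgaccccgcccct
Tnfaip3, chr10:19015411-19015660, minus strand: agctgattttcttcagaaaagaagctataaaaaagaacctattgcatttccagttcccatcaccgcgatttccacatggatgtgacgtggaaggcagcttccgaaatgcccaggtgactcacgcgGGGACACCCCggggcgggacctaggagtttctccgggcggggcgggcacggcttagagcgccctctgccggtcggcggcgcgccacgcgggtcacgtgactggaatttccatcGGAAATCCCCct
Nfkb2, chr19:46304689-46304717, plus strand: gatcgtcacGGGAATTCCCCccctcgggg
Nfkb2, chr19:46304716-46304736, plus strand: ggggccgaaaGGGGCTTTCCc
Nfkb2, chr19:46305449-46305478, plus strand: tccgacggcaGGAATGTCCCcacaaaagcc
Nfkb2, chr19:46305695-46305724, plus strand: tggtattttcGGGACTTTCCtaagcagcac
Rel, chr11:23771042-23771070, minus strand: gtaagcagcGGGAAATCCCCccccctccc
Nfkbie, chr17:45555584-45555613, plus strand: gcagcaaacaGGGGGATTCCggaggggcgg

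The deposited counts added up to between 26564059 and 35838342 in 3 libraries and to 244165712 in DCA replicate 2. They are given as CPM, counts scaled to a common library size by edgeR's TMM method. Between 12302 and 15592 genes had a count, and 3 counts, the limit that a count of 0 allows, lay between 0.0125 and 0.115 CPM, which covers counting error only. Across genes, log2(CPM + 1) correlated at 0.872 between the vehicle libraries, at 0.932 between the DCA libraries, and at 0.884 to 0.915 between treatments. All 12 ILC2 markers were tested, and their summed level was 15186 to 16526 CPM with vehicle against 17478 to 19915 CPM with DCA. Il5 made up this gap, since the other 11 markers summed to 7659 and 7459 CPM with vehicle against 7515 and 7581 CPM with DCA. Among them, Klrg1 (688 and 678 against 463 and 356 CPM), Il1rl1, the IL-33 receptor (833 and 877 against 599 and 533 CPM), and Areg (532 and 512 against 434 and 254 CPM) were lower in both DCA libraries. Il7r (374 and 351 against 583 and 461 CPM) and Il2ra (1075 and 1231 against 1615 and 1585 CPM) were higher in both. Thy1 was nearly absent, with 2 and 0 counts with vehicle and 137 and 6 counts with DCA. It was among the genes tested only through DCA replicate 1. Of all 12 markers, 3 lay above both vehicle libraries (18.6% of all genes tested) and 3 below (14.7%). The rest overlapped, and 0 passed an adjusted p of 0.05 in edgeR's test. Summed T cell markers were at 15.9 to 33.6 CPM, mainly Cd3g and Trac, which were counted in every library, with Cd4 and Cd8a at 0 counts. B cell markers were at 47.3 to 55.2 CPM with vehicle against 37.8 to 44.5 CPM with DCA, almost all Cd79b, with Pax5 at 0. Mast cell and basophil markers were at 159 to 363 CPM, mainly Kit, with Ms4a2 and Fcer1a at 0. Epithelial markers were at 7.74 to 13.5 CPM, with Krt20 at 0. Of the ILC3 markers, Il22, Ncr1, and Il23r were at 0. The ILC3 marker sum was 0 CPM in both vehicle libraries against 3.53 and 0.778 CPM with DCA, from Il17f (66 and 187 counts) and Il17a (48 and 0 counts). The sum of macrophage and monocyte markers was 23.998 to 24.7 CPM with vehicle against 7.31 to 10.2 CPM with DCA, mainly Cd68, with Csf1r and Cd14 at 0, and the part of any of these marker sums in the differences between treatments was not tested. In bulk RNA, fewer cells of a type and less RNA per cell cannot be told apart.

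Levels of different genes were compared per length, as CPM per kilobase of annotated exons, over all 4 libraries. Nfkbia, which encodes IκBα, the inhibitor that NF-κB re-induces fastest, had the highest level, 325 ± 73.1 CPM per kilobase (SD, n = 4), above 97.5% of the genes tested. Nfkbib, which encodes IκBβ, followed at 55.8 ± 13.7 CPM per kilobase. Then came Relb at 45.1 ± 11.6, Rela at 37.3 ± 10.8, Nfkbiz at 34.9 ± 4.95, Nfkb1 at 26.3 ± 5.05, and Nfkb2 at 16.5 ± 5.96 CPM per kilobase. Nfkbie at 9.33 ± 2.81, Tnfaip3 at 3.46 ± 3.30, and Rel at 0.624 ± 0.552 CPM per kilobase closed the order, with Rel above only 7.49% of the genes tested. Only the step from Nfkbia to Nfkbib separated the library ranges of neighbours. The ranges of every other pair of neighbours overlapped, although within each of the 4 libraries Relb was above Rela, Nfkbiz above Nfkb1, Nfkb1 above Nfkb2, and Nfkb2 above Nfkbie. The order of Rela and Nfkbiz differed by treatment, with means of 31.0 and 38.7 CPM per kilobase with vehicle against 43.6 and 31.2 CPM per kilobase with DCA.

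**Figure D1:**
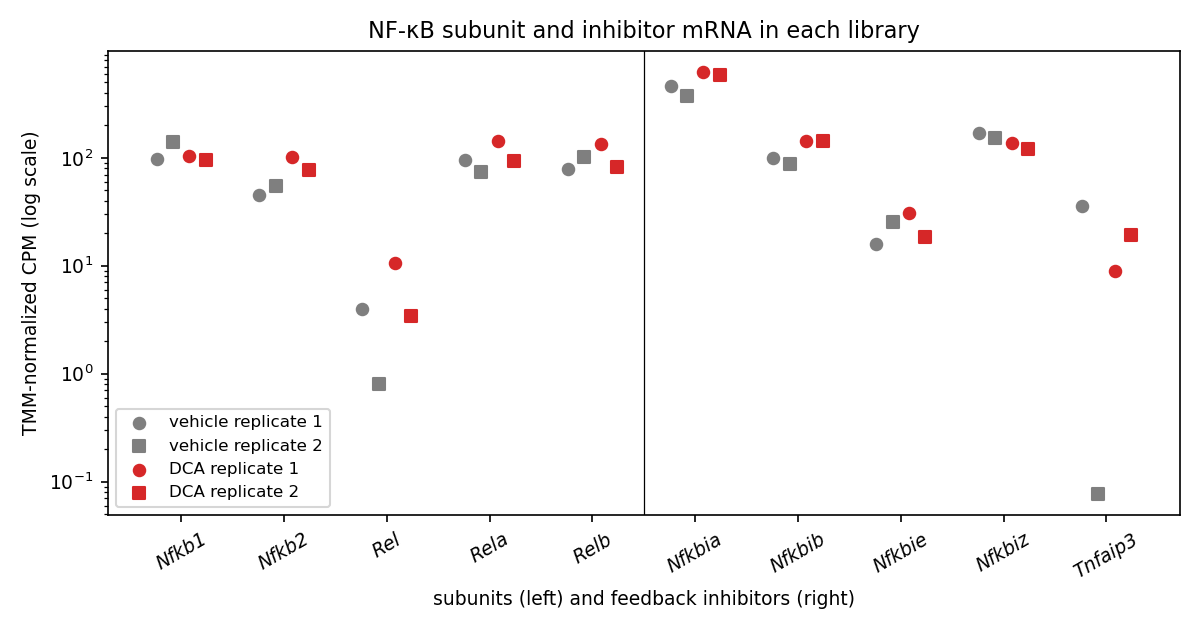
Each point is the level of 1 gene in 1 library, in TMM-scaled CPM on a log axis, with vehicle in grey, DCA in red, circles for replicate 1, and squares for replicate 2. The DCA points lie above both vehicle points for Nfkb2, Nfkbia, and Nfkbib and below both for Nfkbiz, while Tnfaip3 runs from 0.0764 to 35.4 CPM within the vehicle libraries.

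With DCA, 7 members had a higher fitted level and the other 3 (Nfkb1, Nfkbiz, and Tnfaip3) a lower one, but none passed an adjusted p of 0.05 in edgeR's quasi-likelihood test. For each of the 10, this value was 0.999. Over all genes, 0 of 11184 (0%) passed, and 478 had an unadjusted p under 0.05. Of the members, 2 had an unadjusted p under 0.05 with a higher level (Nfkb2 and Nfkbib), where 2.54% of all genes tested did so, and 0 with a lower level, where 1.73% did so. Both DCA libraries lay above both vehicle libraries for 3 members (Nfkb2, Nfkbia, and Nfkbib), as they did for 18.6% of all genes, and below both for 1 (Nfkbiz), as for 14.7% of all genes. The other 6 overlapped. The median log2 fold change (DCA minus vehicle) was 0.38 over the 10 members, 0.49 over the subunits, and 0.25 over the inhibitors, against 0.0080 over all genes tested. With 2 libraries per treatment, no two-sided exact permutation test of a single gene can go below p = 0.333.

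**Figure D2:**
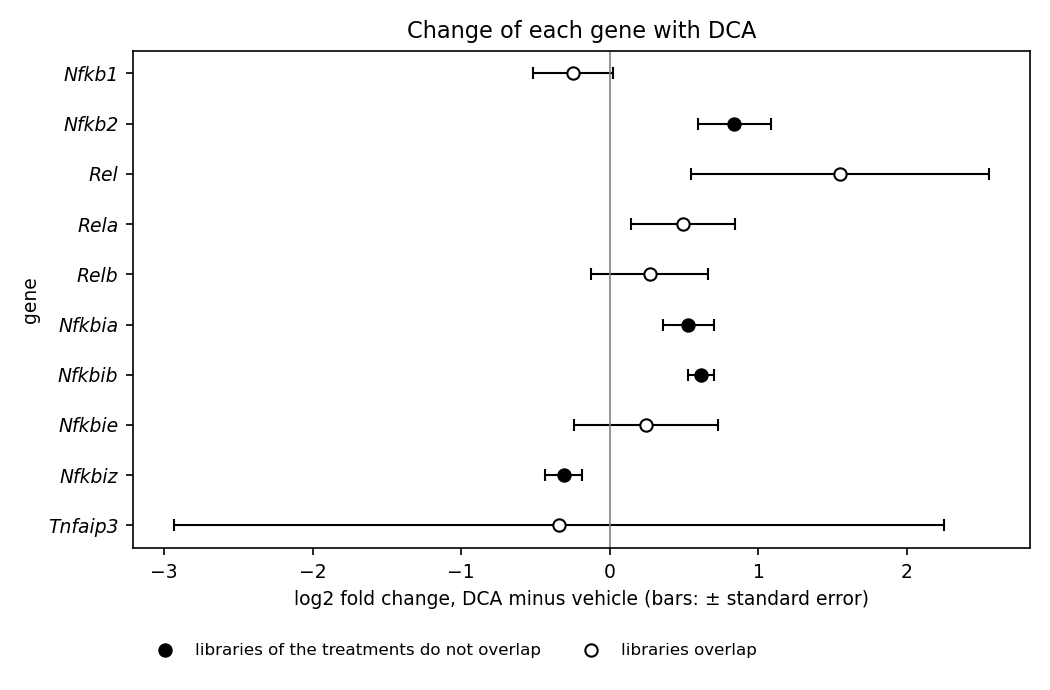
The log2 fold change of each gene (DCA minus vehicle, horizontal axis) is shown with its standard error as a bar, with filled points where the libraries of the treatments did not overlap. The 4 filled points are Nfkb2 (0.84), Nfkbia (0.53), Nfkbib (0.61), and Nfkbiz (-0.31), and the bar of Tnfaip3 is the widest.

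Among the subunits, Nfkb2 had the clearest separation between treatments. Nfkb2 (Entrez 18034, chr19:46300994-46312400) encodes p100, which is both a precursor of the DNA-binding p52 and an inhibitor that retains other subunits in the cytoplasm. Its level was 44.9 and 54.95 CPM with vehicle against 101 and 77.0 CPM with DCA. The treatments did not overlap, with means of 49.9 ± 7.14 and 89.2 ± 17.3 CPM (SD, n = 2 each), a 1.79-fold higher mean. The log2 fold change was 0.84 ± 0.24 (SE), and edgeR's quasi-likelihood test gave an unadjusted p of 0.0346 (adjusted p = 0.999). Its unadjusted p stayed under 0.05 without vehicle replicate 2 (0.0283) but was 0.101 without vehicle replicate 1, 0.238 without DCA replicate 1, and 0.0659 without DCA replicate 2. Nfkb2 shares 830 exonic bases with genes on the opposite strand, of which Psd was at 0.574 to 2.198 CPM, and the strand setting of the counting is not given in the sources used here.

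Nfkb1 (Entrez 18033, chr3:135584655-135691969), which encodes p105 and its product p50, was the only subunit with a lower fitted level. It stood at 96.5 and 139 CPM with vehicle and at 103 and 95.4 CPM with DCA. The DCA libraries lay around the lower vehicle library, so the treatments overlapped (log2 fold change -0.25 ± 0.27, unadjusted p = 0.416 in edgeR's test). Without vehicle replicate 2, its highest library, the log2 fold change was 0.04.

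Rela (Entrez 19697, chr19:5637442-5648134) encodes p65, the activating subunit of the classical dimer. It was at 94.6 and 73.6 CPM with vehicle and at 143 and 94.1 CPM with DCA. DCA replicate 2 was just below vehicle replicate 1, so the treatments overlapped by a small margin (log2 fold change 0.49 ± 0.35, unadjusted p = 0.168 in edgeR's test). Relb (Entrez 19698, chr7:19606217-19629438), the partner of p52 in the noncanonical route, was at 79.2 and 102 CPM with vehicle and at 135 and 82.9 CPM with DCA. The DCA libraries of Relb lay on either side of the higher vehicle library (log2 fold change 0.27 ± 0.39, unadjusted p = 0.452 in edgeR's test), and without DCA replicate 1 its log2 fold change was -0.14.

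Rel (Entrez 19696, chr11:23736847-23770969) encodes c-Rel, a subunit known best from activated lymphocytes. It was counted 144 and 21 times in the vehicle libraries and 339 and 819 times in the DCA libraries. These counts correspond to 3.94 and 0.802 CPM with vehicle and to 10.5 and 3.41 CPM with DCA. The libraries overlapped, since vehicle replicate 1 was above DCA replicate 2, and the log2 fold change of 1.55 carried a standard error of 1.00 (unadjusted p = 0.307 in edgeR's test). Leaving out vehicle replicate 1 gave 3.08, and leaving out DCA replicate 1 gave 0.53.

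The make-up of the subunit pool was then described as each subunit's share of their summed CPM per kilobase, with no test. Relb took 34.1% and 38.4% of the pool with vehicle and 37.2% and 32.9% with DCA, and Rela 33.1% and 22.6% with vehicle against 32.1% and 30.4% with DCA. Both shares overlapped between treatments. Nfkb1 took 22.2% and 28.1% with vehicle against 15.2% and 20.3% with DCA, so its share was lower in both DCA libraries. Nfkb2 took 10.1% and 10.8% with vehicle against 14.6% and 16.0% with DCA, a higher share in both DCA libraries. Rel never exceeded 0.856% of the pool. The ratio of Nfkb2 to Nfkb1 per length, the pair of precursor subunits, was 0.454 and 0.385 with vehicle against 0.963 and 0.789 with DCA. The ratio of Nfkb2 to Relb was 0.297 and 0.282 with vehicle against 0.393 and 0.487 with DCA. Neither ratio overlapped between treatments, which was also the case for 14 of the 45 pairs of members (31.1%) and for 4 of the 9 pairs with Nfkb2, and both were chosen after the values had been seen. The sum of the subunits did overlap, at 105 and 120 CPM per kilobase with vehicle against 164 and 114 CPM per kilobase with DCA.

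**Figure D3:**
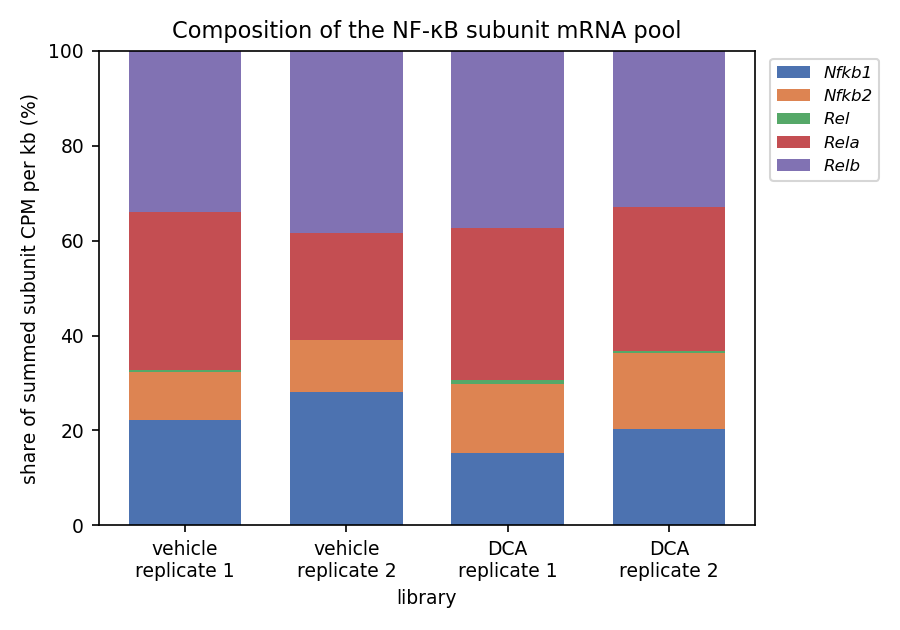
Stacked bars give the share of each subunit, in percent of their summed CPM per kilobase, in each library. The Nfkb2 segment covers 10.1% and 10.8% in the vehicle libraries and 14.6% and 16.0% in the DCA libraries, while Rel is barely visible in any of them.

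Of the inhibitors, the 2 IκB genes with the highest levels were higher in both DCA libraries. Nfkbia (Entrez 18035, chr12:55489409-55492647), whose window is printed above with a match 29 to 20 bases before the start site, was at 468 and 371 CPM with vehicle and at 626 and 584 CPM with DCA. The treatments did not overlap, and the mean was 1.44-fold higher with DCA, 605 ± 29.3 against 420 ± 68.2 CPM (SD, n = 2 each). The log2 fold change was 0.53 ± 0.17, and edgeR's quasi-likelihood test gave an unadjusted p of 0.0513 (adjusted p = 0.999). DESeq2 gave it an unadjusted p of 0.0178 (adjusted p = 0.430), where 7.01% of all genes tested were under 0.05. With median-of-ratios scaling, edgeR's test gave an unadjusted p of 0.062. Of the 8 alternatives that kept all libraries, 3 put Nfkbia under 0.05, and the DESeq2 value was the lowest.

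Nfkbib (Entrez 18036, chr7:28758251-28766644), whose product IκBβ retains dimers for longer than IκBα, was at 99.5 and 88.3 CPM with vehicle and at 144 and 143 CPM with DCA. The SD between the DCA libraries was 0.612 CPM, and the mean was 1.53-fold higher with DCA. Its log2 fold change was 0.61 ± 0.085, and edgeR's quasi-likelihood test gave an unadjusted p of 0.0446 (adjusted p = 0.999). The unadjusted p lay between 0.0621 and 0.169 when any 1 library was left out. A stretch of 314 of its exonic bases is shared with a gene on the opposite strand.

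The ratio of Nfkbia to Nfkbib per length overlapped between treatments, at 6.34 and 5.67 with vehicle against 5.86 and 5.50 with DCA. Summed with Nfkbie, these IκB genes reached 350 and 287 CPM per kilobase with vehicle against 477 and 445 CPM per kilobase with DCA, with no overlap. Nfkbia made up most of each sum (296 and 235 with vehicle, 397 and 370 with DCA), so this adds nothing to its own lack of overlap. Nfkbia set against the summed subunits did overlap, with ratios of 2.82 and 1.96 with vehicle against 2.42 and 3.25 with DCA. These ratios and sums were not tested.

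Nfkbie (Entrez 18037, chr17:45555700-45563169), which encodes IκBε, another cytoplasmic inhibitor, was at 16.0 and 25.5 CPM with vehicle and at 31.0 and 18.3 CPM with DCA. The highest and the next lowest library were both DCA libraries, and the log2 fold change of 0.25 ± 0.49 had an unadjusted p of 0.660 in edgeR's test. Leaving out vehicle replicate 1 gave -0.080, and leaving out DCA replicate 1 gave -0.19.

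Nfkbiz (Entrez 80859, chr16:55811375-55838954) encodes IκBζ, a nuclear member of the IκB family that binds NF-κB on chromatin and is needed for a subset of late target genes. It was at 169 and 151 CPM with vehicle and at 137 and 121 CPM with DCA. It was the only member with both DCA libraries below both vehicle libraries, with a log2 fold change of -0.31 ± 0.12, and an unadjusted p of 0.239 (adjusted p = 0.999) in edgeR's test. The ratio of Nfkbiz to Nfkbia per length was 0.138 and 0.155 with vehicle against 0.0837 and 0.0787 with DCA. This ratio was chosen after the values had been seen and was not tested.

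Tnfaip3 (Entrez 21929, chr10:19000910-19015410) encodes A20, a ubiquitin-editing enzyme that shuts off signalling upstream of IκB kinase. Its window, printed above, holds matches that begin 125 and 12 bases before the start site. It was counted 1296 and 2 times in the vehicle libraries and 288 and 4585 times in the DCA libraries. This is 35.4 and 0.0764 CPM with vehicle against 8.91 and 19.1 CPM with DCA, so both DCA libraries lay between the vehicle libraries. The exact Poisson 95% interval of the low library, 0.00926 to 0.276 CPM, covers counting error only and is far below the other libraries. The vehicle libraries thus differed 464-fold in Tnfaip3, and a gap as large on the log2(CPM + 1) scale (5.08) was seen in only 5 of the 11184 genes tested (0.0447%), Tnfaip3 included. The log2 fold change of -0.34 had a standard error of 2.59 (unadjusted p = 0.854 in edgeR's test) and turned to 7.47 without vehicle replicate 1 and to 0.12 without DCA replicate 1. The mean difference on the log2(CPM + 1) scale had the opposite sign, 1.17. No direction can be given for Tnfaip3 from these libraries.

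The spread between libraries of the same treatment was thus unequal among members. A gap of over 1.5-fold within a treatment was seen for 3 members with vehicle and for 5 with DCA. The smallest of these gaps was that of Nfkbie with vehicle and that of Rela with DCA. On the log2(CPM + 1) scale, gaps as large were seen in 44.9% and 35.7% of all genes tested, so such gaps were common. Leaving out each library in turn kept the direction of Nfkb2 (log2 fold changes of 0.62 to 1.03), Rel (0.53 to 3.08), Rela (0.16 to 0.77), Nfkbia (0.37 to 0.68), Nfkbib (0.53 to 0.67), and Nfkbiz (-0.41 to -0.22). For Nfkb2, Nfkbia, Nfkbib, and Nfkbiz this follows from the lack of overlap between treatments and adds nothing to it. How many of all genes tested keep their direction was not counted. The direction of Nfkb1, Relb, Nfkbie, and Tnfaip3 turned in at least 1 of the fits.

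**Figure D4:**
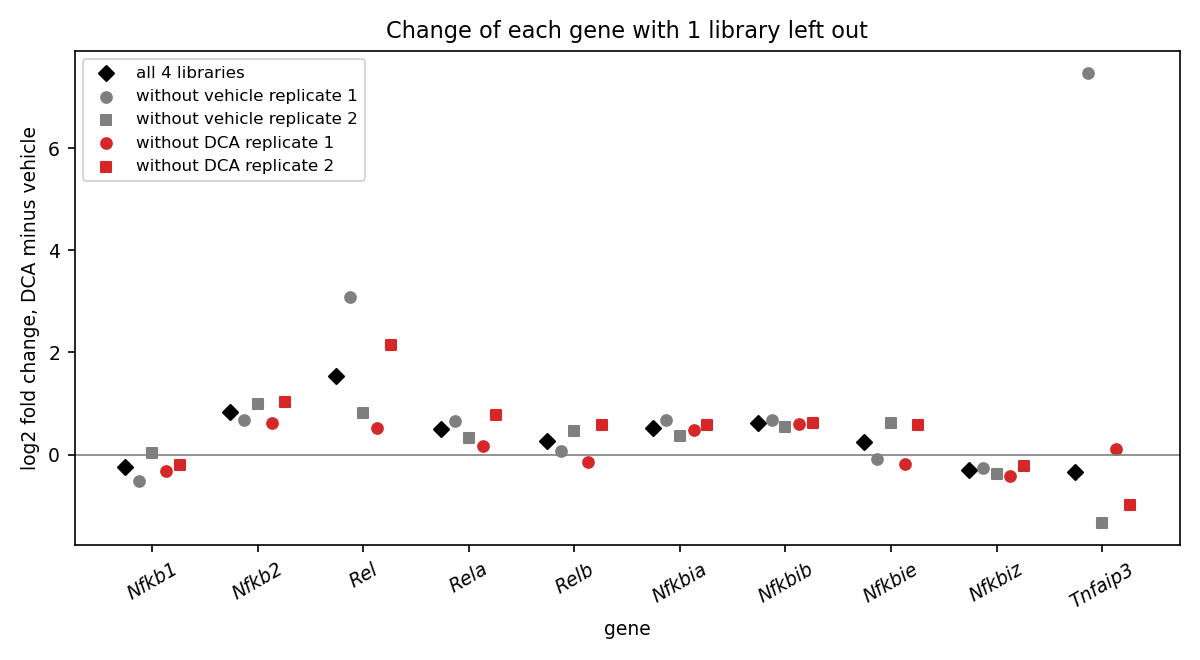
For each gene, the log2 fold change (DCA minus vehicle, vertical axis) is given with all libraries (black diamonds) and after a vehicle (grey) or DCA (red) library is left out. The points of Nfkb2, Rel, Rela, Nfkbia, and Nfkbib stay above 0 and those of Nfkbiz below it, whereas those of Tnfaip3 run from -1.34 to 7.47.

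Other genes of the pathway were read from lists grouped by role, 60 genes in all, of which 53 were tested and 7 (Tnip3, Bcl2a1b, Tnf, Ccl1, Ccl5, Cd83, and Cd40) did not pass the filter on low counts. In the 53, 27 had a higher and 26 a lower fitted level with DCA, with a median log2 fold change of 0.03, and 0 passed an adjusted p of 0.05 in edgeR's test. Among the 27 were Traf5 and Map3k14, which passed the filter only through DCA libraries, so their direction is not read. An unadjusted p under 0.05 was found for 2 with a higher level (Tax1bp1 and Traf1) and 2 with a lower level (Rnf31 and Cd69), where 2.54% and 1.73% of all genes tested did so. Traf5 is left out of this count, because it passed the filter only through the DCA libraries. The DCA libraries lay above both vehicle libraries for 16 of the 53, Traf5 included (18.6% of all genes tested did so), and below both for 6 (14.7% did so).

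Receptor adaptors and proximal kinases act at the receptor for IL-33 and at TNF receptor family members, among others. They were split evenly, with 7 of 14 higher, Traf5 included, and 7 lower, and a median of -0.01. Those with the highest levels, Myd88 and Irak3, had log2 fold changes of 0.04 and -0.07. Traf5, an adaptor of TNF receptor family members, was not counted with vehicle (0 in each library) and was counted 119 and 643 times with DCA, or 3.68 and 2.67 CPM. Against a floor of 3 counts per vehicle library its mean level was at least 32.3-fold higher with DCA, a bound that covers counting error only. Traf5 passed the filter on low counts only through the DCA libraries, so neither its p-value nor this ratio is read as a result. How many of all genes tested share this pattern was not counted. Against the same floor it was at least 27.2-fold higher in DCA replicate 2 alone, and without DCA replicate 1 its mean was under the filter of 1 CPM.

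In the IκB kinase (IKK) complexes and the linear ubiquitin ligase LUBAC, 3 of 9 genes (Chuk, Ikbkg, and Ikbke) were higher and 6 lower, with a median of -0.14. Tbk1 and Rbck1, with the highest levels, both had log2 fold changes of -0.18. Rnf31, which encodes HOIP, the catalytic subunit of LUBAC, was at 33.0 and 34.4 CPM with vehicle and at 11.3 and 14.2 CPM with DCA. Both DCA libraries were well below both vehicle libraries, and the log2 fold change of -1.40 ± 0.16 (unadjusted p = 0.0216, adjusted p = 0.999 in edgeR's test) ranged from -1.58 to -1.25 when each library was left out. Of the 4 genes of the noncanonical route, which acts on the p100 product of Nfkb2, 1 was higher and 3 were lower, with a median of -0.19. The one with a higher fitted level, Map3k14, which encodes the kinase NIK and is named after its values were seen, was at 0.274 and 0.0382 CPM with vehicle against 0.0929 and 4.63 CPM with DCA, so it overlapped between treatments. Map3k14 passed the filter on low counts only through DCA replicate 2, so its direction is not read. Birc3, a ubiquitin ligase of this route, was at 148 and 141 CPM with vehicle against 131 and 138 CPM with DCA (log2 fold change -0.10), and Traf3 had a log2 fold change of -0.28.

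Of the other IκB proteins and brakes, 8 of 12 tested genes were higher and 4 lower, with a median of 0.11. Bcl3, a nuclear IκB protein that binds p50 and p52, was at 357 and 381 CPM with vehicle and at 447 and 395 CPM with DCA, higher in both DCA libraries (log2 fold change 0.19). Tax1bp1, a ubiquitin-binding cofactor of A20, was at 299 and 450 CPM with vehicle and at 599 and 597 CPM with DCA. Its log2 fold change was 0.67 (unadjusted p = 0.0388, adjusted p = 0.999 in edgeR's test), with a range of 0.38 to 1.00 when each library was left out.

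Among known NF-κB target genes, 8 of 14 tested genes were higher and 6 lower, with a median of 0.17, and the 2 with an unadjusted p under 0.05 had opposite signs. Traf1, an adaptor induced by NF-κB, was at 59.8 and 51.5 CPM with vehicle and at 104 and 87.8 CPM with DCA (log2 fold change 0.78, unadjusted p = 0.0319, adjusted p = 0.999 in edgeR's test). Cd69, an early activation marker of lymphocytes, was at 613 and 394 CPM with vehicle and at 269 and 301 CPM with DCA (log2 fold change -0.82, unadjusted p = 0.0231, adjusted p = 0.999 in edgeR's test). The treatments overlapped for neither gene. Tnfrsf9, the receptor 4-1BB and the target with the highest level, was at 821 and 501 CPM with vehicle and at 876 and 986 CPM with DCA (log2 fold change 0.49), above both vehicle libraries in both DCA libraries. The log2 fold change of Tnfrsf9 was 0.18 after leaving out vehicle replicate 2 and 0.87 after leaving out vehicle replicate 1. That of Cd69 was -1.10 and -0.49 in the same fits, and that of Traf1 ranged from 0.65 to 0.90 over the 4 libraries left out. For Rnf31, Tax1bp1, Traf1, Cd69, and Tnfrsf9, the kept direction follows from the lack of overlap between treatments and adds nothing to it.

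**Figure D5:**
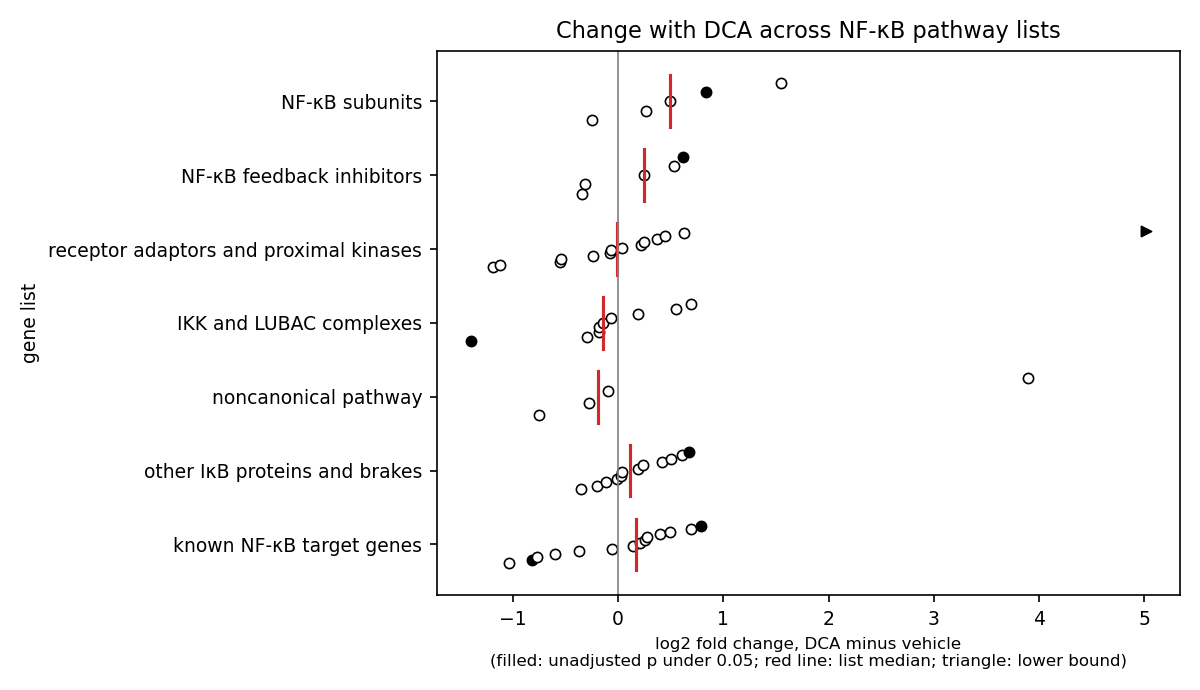
Each point is the log2 fold change (DCA minus vehicle, horizontal axis) of 1 gene in a pathway list, filled where the unadjusted p was under 0.05. A red line marks the list's median. The triangle is the lower bound of Traf5, which covers counting error only. The fill of the triangle is not read, because Traf5 passed the filter on low counts only through the DCA libraries. The medians lie between -0.19 and 0.49, with points on both sides of 0 in each of the lists shown. In the noncanonical list, only Map3k14 lies above 0.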

How the data were processed

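The authors filtered paired reads with cutadapt 1.9, used HISAT2 2.2.1 for alignment to mm10, and deposited whole-number counts per gene in a table whose name refers to FPKM. The counting tool, its annotation, and its strand setting are not given in the sources used here. Libraries titled Ctrl were taken as vehicle, and those titled DCA as DCA. From the deposited counts, genes averaging 1 CPM or more (scaled to total counts, before TMM) over the 4 libraries were tested with edgeR 4.0.16 (quasi-likelihood, two-sided, Benjamini-Hochberg adjustment over all genes tested) in R 4.3.3. The standard error of a log2 fold change was taken from log2(CPM + 1) values of the libraries. Levels per kilobase used merged exons of GENCODE M21, available for 94.7% of the genes tested. The members and lists were chosen with earlier results of these data known. Named genes are all members and, of each pathway list, those with an unadjusted p under 0.05 and the 2 with the highest mean CPM. Alternatives were DESeq2 1.42.0, limma 3.58.1, other scalings and filters, thinning of DCA replicate 2, a replicate block, and leaving out each library. A further pathway list and some marker genes are not reported here.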

Additional observations from a re-analysis of the deposited data

How the results depend on the processing

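The members other than Rel and Tnfaip3 had at least 586 counts in each library, whereas these 2 had 21 and 2 counts in vehicle replicate 2. Genes past an adjusted p of 0.05 numbered 0 in edgeR's test (478 at an unadjusted p under 0.05), 36 without the filter on low counts, 126 with DESeq2, and 0 to 20 when each library was left out, with 20 without vehicle replicate 1. No member was among them in any of these fits. The lowest adjusted p of a member was 0.430 (Nfkbia, DESeq2) with all libraries and 0.0942 (Tnfaip3) with a library left out. Such a fit leaves a treatment with 1 library, which is assumed to vary like the others. Members with an unadjusted p under 0.05 numbered 2 in edgeR's test, 1 with median-of-ratios scaling, 3 with DESeq2, limma, or the replicate block, and 0 to 2 when each library was left out, with 0 without either DCA library and 1 without vehicle replicate 2. Over all genes tested, the share was 4.27% in edgeR's test, 4.39% with median-of-ratios scaling, 7.01% with DESeq2, 4.62% with limma, 4.02% with the replicate block, 13.5% and 11% without vehicle replicates 1 and 2, and 0.956% and 2.34% without DCA replicates 1 and 2.

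Of 119 log2 fold changes of members under 12 alternatives, 111 kept their direction and 8 reversed. Tnfaip3 was at 1.17 with limma, at 2.40 with the replicate block, and at -1.34 to 7.47 when each library was left out. The same range was -0.19 to 0.62 for Nfkbie, -0.52 to 0.040 for Nfkb1, and -0.14 to 0.58 for Relb. The cause was not tested. Leaving out a library also turned the direction of Myd88, Irak3, Tbk1, Rbck1, and Traf3. Rel had no value under a filter of 5 CPM. The labels do not state whether libraries of the same number share a mouse, culture, or batch. The correlation of their deviations across genes was 0.0197, a single value that cannot decide this.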

Other observations

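The other 4 genes with a gap between the vehicle libraries as large as that of Tnfaip3 were Mkx, Samd10, Sema4a, and Il6, and they were named after their values had been seen. Mkx, a homeobox factor, was at 46.0 and 0.0764 CPM with vehicle and at 23.5 and 35.5 CPM with DCA. Il6, an inflammatory cytokine and NF-κB target, was at 52.1 and 0.535 CPM with vehicle and at 2.85 and 28.0 CPM with DCA. Samd10 was at 46.2 CPM and 0 counts with vehicle and at 53.3 and 25.1 CPM with DCA. Sema4a, a semaphorin, was at 35.8 CPM and 0 counts with vehicle and at 7.37 and 1.29 CPM with DCA. In all 4, as in Tnfaip3, vehicle replicate 2 was the lowest library.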
